A study of Bubalus bubalis with 12 samples.

Results

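The genes described here are 10 immediate early genes, FOS, FOSB, JUN, JUNB, EGR1, ATF3, IER2, IER3, DUSP1 and ZFP36, measured by RNA-seq in the ruminal wall of Italian Mediterranean dairy buffaloes. They were chosen by their symbols in the deposited table, which lists 34037 genes, and each symbol was found once. The study compared 6 control animals, fed a total mixed ration (TMR), with 6 treated animals, whose TMR held green ryegrass as about 30% of the diet. All 12 animals were multiparous dairy buffaloes of 1 farm that were already due for slaughter. Each gave 1 library of total RNA, so that the animal is the replicate. The RNA came from a biopsy of the ruminal wall, taken after euthanasia by captive bolt, washed in cold buffer and frozen. The fragments assigned to genes numbered from 10531245 to 12947982 in a library.

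Immediate early genes are transcribed within minutes of a stimulus, without the need for new protein, when kinases of the MAP kinase pathways act on factors such as SRF, its ternary complex partners and CREB that already sit at their promoters. Their transcripts are short-lived, so that their level in a tissue reflects the time just before it was frozen, stress and handling included. FOS, FOSB, JUN and JUNB encode subunits of AP-1, a dimeric transcription factor, and ATF3 is a related bZIP protein that pairs with JUN proteins. EGR1 is a zinc finger transcription factor. IER2 and IER3 are small early response proteins, of which IER3 is linked to cell survival. DUSP1, a phosphatase of MAP kinases, and ZFP36 (tristetraprolin), which promotes the decay of mRNAs with AU-rich elements, act as brakes on the same response. In a stratified epithelium such as that of the rumen, AP-1 proteins also take part in keratinocyte growth and differentiation.

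Levels are given as FPKM, fragments relative to the length of the gene and to the depth of the library, which can be compared between genes since they are per length. Averaged over the 12 animals, the order of the levels was IER3 with 92.4 FPKM, JUN with 74.8, JUNB with 70.4, FOS with 51.4, DUSP1 with 22.0, ZFP36 with 11.6, IER2 with 8.54, ATF3 with 2.16, EGR1 with 0.897 and FOSB with 0.191. The first 4 of these were among the most abundant transcripts of the tissue, since 4.98% of the 12760 genes tested had a mean level as high as that of IER3 or higher, and 8.98% one as high as that of FOS. JUN and JUNB could not be ranked against each other, with JUN above JUNB in 8 of 12 animals and a mean log2 ratio of 0.01 ± 0.43 (SD). IER3 was above JUN in 9 animals, JUNB above FOS in 10, DUSP1 above ZFP36 in 11 and ZFP36 above IER2 in 10, with mean log2 ratios of 0.35 ± 0.47, 0.52 ± 0.44, 0.98 ± 0.55 and 0.38 ± 0.56 (SD), respectively. FOS exceeded DUSP1, and IER2 exceeded ATF3, in all 12 animals. EGR1 stood below ATF3 in 11 animals and above FOSB in all 12.

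**Figure D1:**
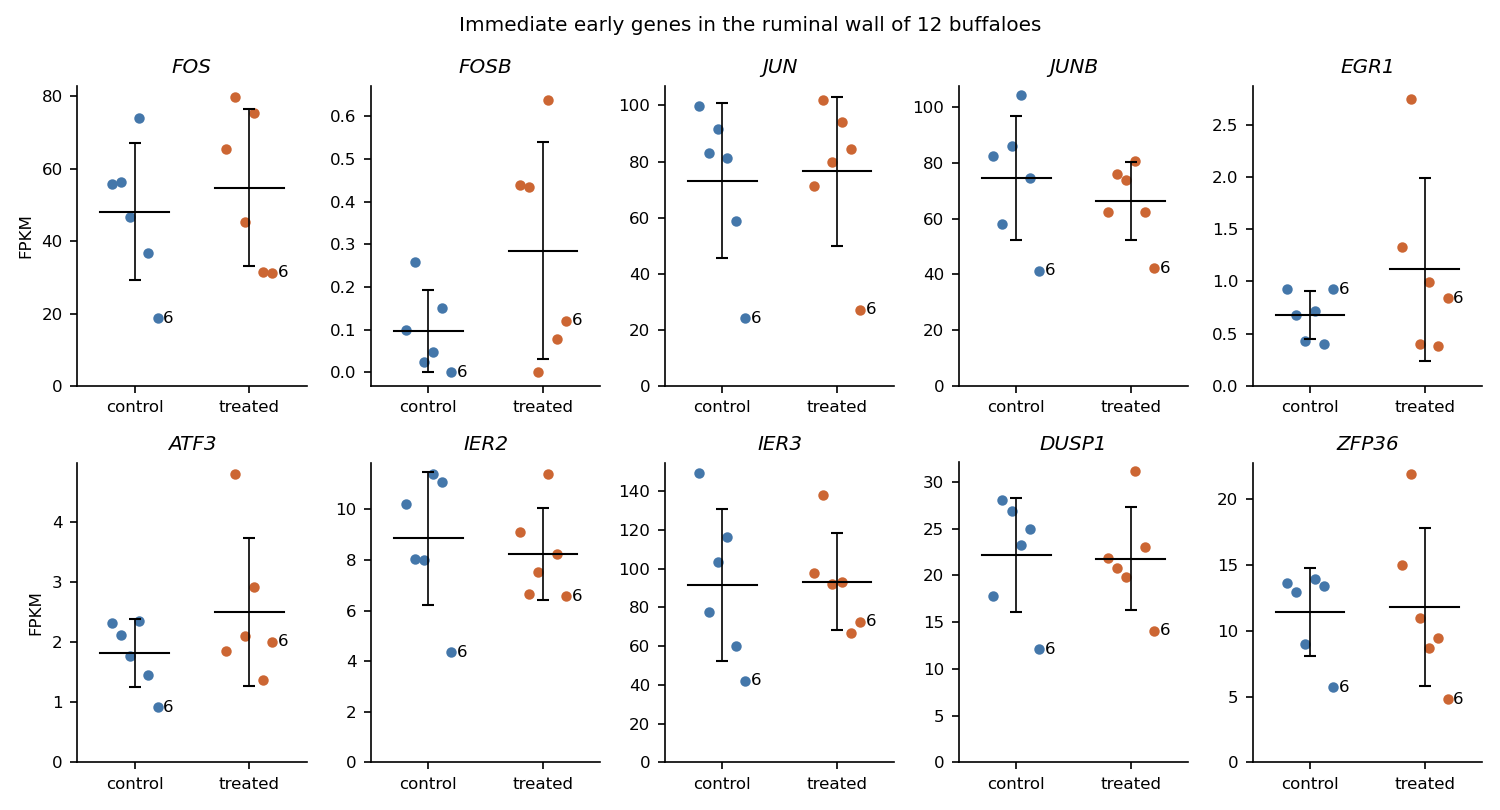
Level of each of the 10 immediate early genes in FPKM (vertical axis) in the 6 control (blue) and 6 treated (orange) animals, with 1 point per animal, the mean as a horizontal line and the SD as error bars; the animals with replicate number 6 are marked. In every panel the groups overlap, and both animals marked 6 are the lowest of their group for FOS, JUN, JUNB, IER2, DUSP1 and ZFP36.

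The comparison of the diets asks whether green feed changed the transcription of the ruminal wall. Log2 fold changes are mean log2(FPKM + 0.01) of treated minus that of control animals, tested with limma across the 12760 genes that had at least 40 scaled reads in at least 1 animal. Of the 10 genes, 9 passed this filter and FOSB did not. None of the 9 had a nominal limma p-value below 0.05, which 162 of the genes tested reached (1.27% of them), and none had an adjusted p-value below 0.05, which 0% of the genes tested had. The adjusted p-value (limma, Benjamini-Hochberg) was 0.9996 for each of the 9. In none of the 10 did the groups fail to overlap, a pattern that 0.0549% of the genes tested showed. The mean was higher in the treated group for 5 of the 9 and lower for 4, with a median log2 fold change of 0.09 beside 0.0051 over all genes tested. Exact permutation p-values, two-sided over the 924 ways to divide the animals, ran from 0.264 to 0.983 for the 9, where the smallest possible is 0.00216. The animals were labelled as separate, but the pieces of wall could differ in their mix of cells, and in bulk tissue fewer cells of a type and less RNA per cell cannot be told apart.

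Among the AP-1 subunits, FOS ranged from 18.7 FPKM over a median of 51.3 to 73.9 in controls, and from 31.3 over a median of 55.3 to 79.8 with green feed. The lowest animal was control 6 and the highest was treated 2, and 4 of 6 treated animals lay within the range of the controls. Its log2 fold change was 0.21 (standard error 0.33) with a 95% confidence interval from -0.50 to 0.91 (exact permutation p = 0.610, n = 6 per group). Without control 6 it was -0.04, so that its sign rested on that animal.

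JUN had a lowest level of 24.2 FPKM, a median of 82.0 and a highest level of 99.9 in controls, and 27.1, 82.2 and 102 in treated animals. In each group replicate 6 stood below all others, since the other 10 animals had at least 58.9 FPKM. The group difference was 0.09 on the log2 scale (standard error 0.37, 95% confidence interval from -0.70 to 0.87, exact permutation p = 0.751, n = 6 per group), and -0.21 without control 6.

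JUNB, a JUN protein that is known to act in part against JUN, ran from 41.3 FPKM over a median of 78.6 to 104 in controls and from 42.1 over 68.2 to 80.7 in treated animals. Its highest values were found in the control group, in control 4 and control 3, and replicate 6 was again the lowest of each group. The log2 fold change was -0.14 (standard error 0.22, 95% confidence interval from -0.60 to 0.32, exact permutation p = 0.571, n = 6 per group), with -0.30 without control 6 and -0.01 without treated 6.

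ATF3, a gene of the stress response, was low, with 0.919 to 2.35 FPKM and a median of 1.94 in controls and with 1.37 to 4.79 FPKM and a median of 2.05 in treated animals. Treated 2, at 4.79 FPKM from 149 reads, held 18.2% of the reads of the gene, and only it and treated 4 were above all controls. The log2 fold change was 0.41 (standard error 0.31, 95% confidence interval from -0.26 to 1.07, exact permutation p = 0.264, n = 6 per group), and it was 0.20 without treated 2.

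FOSB was at the limit of detection. The control animals 1 to 6 had 4, 10, 1, 2, 6 and 0 reads, and the treated animals 1 to 6 had 17, 17, 0, 25, 3 and 5 reads. The totals were 23 reads for control and 67 for treated animals, with 3 treated animals above every control and 3 within their range. In FPKM the means were 0.0968 ± 0.0962 (SD, n = 6) and 0.285 ± 0.254 (SD, n = 6). The count of 0 in control 6 allows up to 0.0879 FPKM (3 reads, counting error only) and that in treated 3 up to 0.0770 FPKM. Fitted among all genes above 0, its log2 fold change was 1.22 (standard error 1.07, nominal limma p = 0.272; exact permutation p = 0.310, n = 6 per group). It was 0.21 when 1 in place of 0.01 FPKM was added, and without treated 3 it was 2.02 with a nominal limma p of 0.0449, so that the value of this gene depended on single animals with few reads.

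EGR1, which responds to growth factors and mechanical stimuli, was low as well, with 0.396 to 0.929 FPKM and a median of 0.698 in controls and with 0.383 to 2.74 FPKM and a median of 0.917 in treated animals. Treated 2 was again the highest animal, with 102 reads or 25.4% of those of the gene, and treated 5 was the lowest of all. EGR1 was not low in the animals with number 6, at 0.923 FPKM in control 6 and 0.840 in treated 6. The log2 fold change was 0.45 (standard error 0.45, 95% confidence interval from -0.51 to 1.42, exact permutation p = 0.383, n = 6 per group), and it was 0.13 without treated 2.

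IER2 lay between 4.36 and 11.4 FPKM with a median of 9.12 in controls and between 6.55 and 11.4 FPKM with a median of 7.88 in treated animals. Control 4 and treated 4 were the highest of their groups, and control 6 was below every other animal. For IER2 the log2 fold change was -0.06 (standard error 0.23, 95% confidence interval from -0.55 to 0.42, exact permutation p = 0.827, n = 6 per group). IER3, the most abundant of the 10, had 42.1 to 149 FPKM with a median of 90.6 in controls and 66.6 to 138 FPKM with a median of 92.4 in treated animals. All treated animals lay within the range of the controls, control 6 and control 5 were below every treated animal, and control 1 was the highest of all. Its log2 fold change was 0.11 (standard error 0.27, 95% confidence interval from -0.48 to 0.70, exact permutation p = 0.742, n = 6 per group).

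Of the feedback genes, DUSP1 had 12.1 to 28.0 FPKM with a median of 24.1 in controls and 14.1 to 31.1 FPKM with a median of 21.3 in treated animals, with replicate 6 lowest in each group. The log2 fold change of DUSP1 was -0.01 with a 95% confidence interval from -0.48 to 0.46 (exact permutation p = 0.983, n = 6 per group). ZFP36 had 5.73 to 14.0 FPKM with a median of 13.2 in controls and 4.79 to 21.9 FPKM with a median of 10.2 in treated animals. In ZFP36, 4 controls lay close together between 12.9 and 14.0 FPKM, whereas the treated animals were spread on both sides of them. The log2 fold change of ZFP36 was -0.04 with a 95% confidence interval from -0.74 to 0.66 (exact permutation p = 0.903, n = 6 per group). Neither interval excludes a change as large as the within-group SD of the gene.

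**Figure D2:**
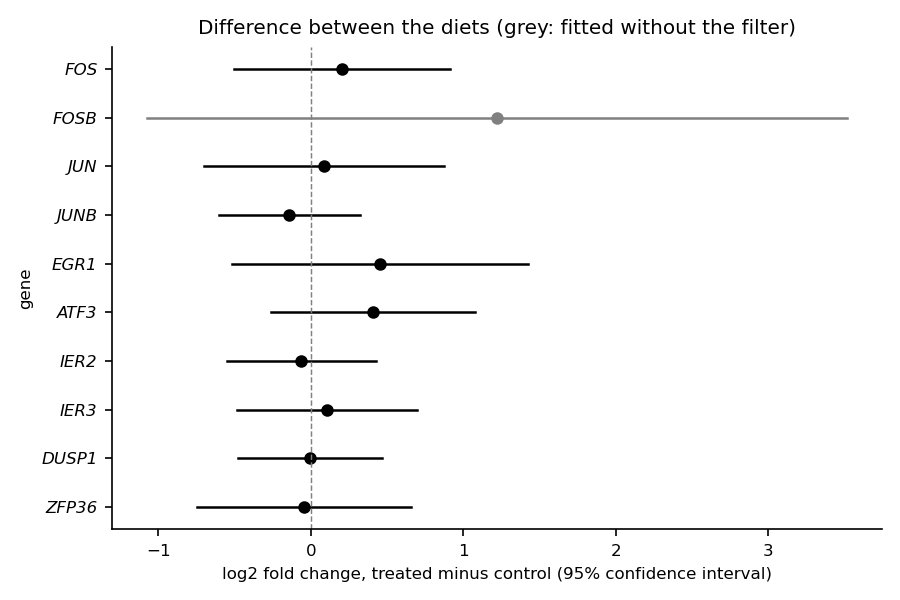
Log2 fold change of each immediate early gene, treated minus control (horizontal axis), as a point with its 95% confidence interval as a line, from limma on 6 animals per group; FOSB (grey) was fitted without the filter on reads. All 10 intervals include 0, and those of JUNB, IER2 and DUSP1 are the narrowest.

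The genes varied between animals fed the same diet, some of them strongly. Over the 9 genes, the median within-group SD on the log2 scale was 0.57, beside 0.36 over all genes tested, and all 9 were above the latter value. Compared with genes whose mean was within 2-fold of their own, JUN exceeded 97.0% in its SD, FOS 95.5%, ZFP36 93.1% and IER3 90.3%. The other 5 stood between 66.4% for ATF3 and 79.7% for JUNB. Compared with all genes tested, JUNB exceeded 58.4% in its SD, DUSP1 59.3% and IER2 59.8%, which is near the middle. The highest animal exceeded the lowest 7.17-fold for EGR1, 5.21-fold for ATF3, 4.59-fold for ZFP36, 4.27-fold for FOS and 4.22-fold for JUN, and 2.53-fold for JUNB as the least.

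The lowest animal was control 6 for 7 of the 10 genes (FOS, JUN, JUNB, ATF3, IER2, IER3 and DUSP1), and control 6 shared the value of 0 for FOSB with treated 3. It was the lowest of 12 for 16.7% of the genes tested. Treated 2 was the highest for 5 genes (FOS, JUN, EGR1, ATF3 and ZFP36), which held for 10.4% of the genes tested. Control 6 and treated 6 were both among the 3 lowest animals for FOS, JUN, JUNB, IER2, DUSP1 and ZFP36, a pattern that 24.6% of the genes tested showed.

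Control 6 and treated 6 also stood apart over the whole transcriptome. On the first principal component of the genes tested, which held 26.8% of the variance, they were at 50.3 and 74.1, whereas the other 10 animals ranged from -37.9 to 11.1. KRT5, a keratin of basal keratinocytes, was at 451 and 498 FPKM in these libraries and at 1179 FPKM or more in all others, and the 11 matched epithelial markers summed to 3419 and 3604 FPKM against at least 4451 FPKM elsewhere. The 9 fibroblast markers summed to 226 and 191 FPKM, within the 21.6 to 298 FPKM of the other animals, as did the 10 smooth muscle markers in control 6 with 37.8 FPKM, while treated 6 had the lowest sum with 15.5 FPKM. Control 6 had the fewest counted fragments (10531245), while treated 6 had 12729720. DSG3, a desmosomal cadherin of the epithelium, was instead at 971 and 843 FPKM in these libraries, above the 550 to 830 FPKM of the others. The part of these libraries in the results below was not tested. The relations among the immediate early genes and their likeness to the other immediate early genes are given with and without both, a choice made after seeing the data. For the relations of FOS, leaving out the 2 animals farthest from the median of FOS on the log2 scale gave the same animals.

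**Figure D3:**
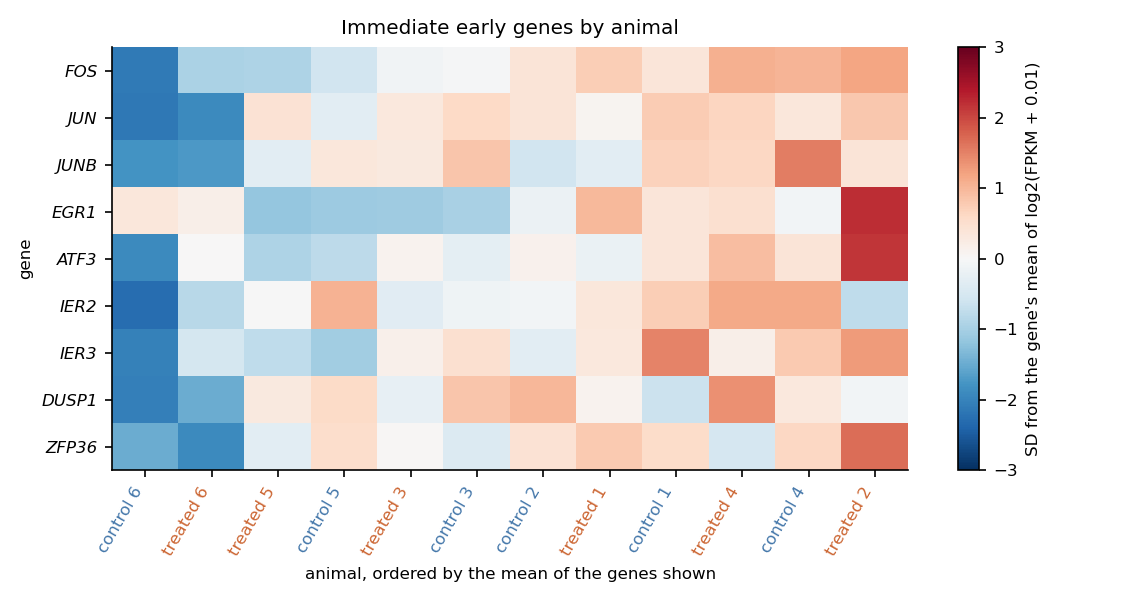
Level of the 9 immediate early genes that passed the filter (rows) in each animal (columns, control names in blue and treated names in orange), as the number of SD from the gene's mean of log2(FPKM + 0.01), with animals ordered by the mean of the 9 genes. Control 6 and treated 6 are at the low end and treated 2, control 4 and treated 4 at the high end, and EGR1 departs from the order in control 6.

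Whether the genes rose and fell together was asked by correlating FOS with each of the other 9 genes across the 12 animals. By a permutation test with Benjamini-Hochberg adjustment over these 9 relations, Pearson's r was above 0 with an adjusted p below 0.05 for 8 genes, and Spearman's rho for 2. Ranked by r with FOS among 12759 genes tested, ATF3 stood at 61, IER3 at 72, JUN at 247, ZFP36 at 614 and JUNB at 654. DUSP1 stood at 1492, IER2 at 1502 and EGR1 at 3540, so that many other genes followed FOS as closely as these. The same test was not run over all genes. The relation to ATF3 was r = 0.846 (permutation p = 0.00037, adjusted 0.00315) with rho = 0.839 (permutation p = 0.00111, adjusted 0.00999). The relation to IER3 was r = 0.839 (permutation p = 0.0007, adjusted 0.00315) with rho = 0.755 (permutation p = 0.00646, adjusted 0.0291). Both were positive within each diet, with r = 0.983 in controls (exact permutation p = 0.00278) and 0.754 in treated animals (exact permutation p = 0.0750) for ATF3, and with 0.852 (exact permutation p = 0.025) and 0.869 (exact permutation p = 0.00833) for IER3. Without control 6 and treated 6, r was 0.825 for ATF3 (permutation p adjusted over the 9 relations 0.0126) and 0.692 for IER3 (adjusted 0.0829). Without control 6 alone, the relation to ATF3 was the only one of the 9 with an adjusted permutation p below 0.05, and without treated 4 there were 5 such relations.

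JUN had r = 0.784 (permutation p = 0.00239, adjusted 0.00717) with rho = 0.671 (permutation p = 0.02, adjusted 0.0577), and r = 0.442 without both animals (permutation p = 0.202). JUNB had r = 0.725 (permutation p = 0.00783, adjusted 0.0141) with rho = 0.615 (permutation p = 0.0376, adjusted 0.0643), and r = 0.352 without both. In controls r was 0.915 for JUN and 0.823 for JUNB, and in treated animals it was 0.629 and 0.722. Without both animals the permutation p adjusted over the 9 relations was 0.302 for JUN and 0.411 for JUNB. Without control 6 alone r was 0.605 for JUN (adjusted permutation p = 0.0526) and 0.565 for JUNB (adjusted permutation p = 0.0975). Without treated 6 alone it was 0.793 (adjusted permutation p = 0.0310) and 0.702 (adjusted permutation p = 0.0342).

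Of the brakes of the response, DUSP1 had r = 0.641 with FOS (permutation p = 0.0252, adjusted 0.0324) and rho = 0.490 (permutation p = 0.110, adjusted 0.116), and r = 0.051 without both animals. ZFP36 had r = 0.729 (permutation p = 0.00679, adjusted 0.0141) and rho = 0.650 (permutation p = 0.0256, adjusted 0.0577), with r = 0.463 without both and 0.720 without treated 6 alone (adjusted permutation p = 0.0310). IER2 had r = 0.639 (permutation p = 0.0250, adjusted 0.0324) and rho = 0.483 (permutation p = 0.116, adjusted 0.116), and r = 0.10 without both. FOSB, from few reads, had r = 0.619 (permutation p = 0.0322, adjusted 0.0362) and rho = 0.602 (permutation p = 0.0429, adjusted 0.0643), and r = 0.488 without both.

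The relation to EGR1 had the higher r without both animals. Over all 12 animals its r with FOS was 0.432 (permutation p = 0.162, adjusted 0.162) and rho was 0.566 (permutation p = 0.0577, adjusted 0.0742). Without control 6 and treated 6, where EGR1 was close to the level of other animals while FOS was low, r was 0.824 (permutation p = 0.0028, adjusted 0.0126). This p followed a choice made after seeing the data. Without treated 2 alone, the highest animal for both genes, r was 0.258 (permutation p = 0.445). Within the diets r was -0.103 in controls, which include control 6, and 0.742 in treated animals.

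**Figure D4:**
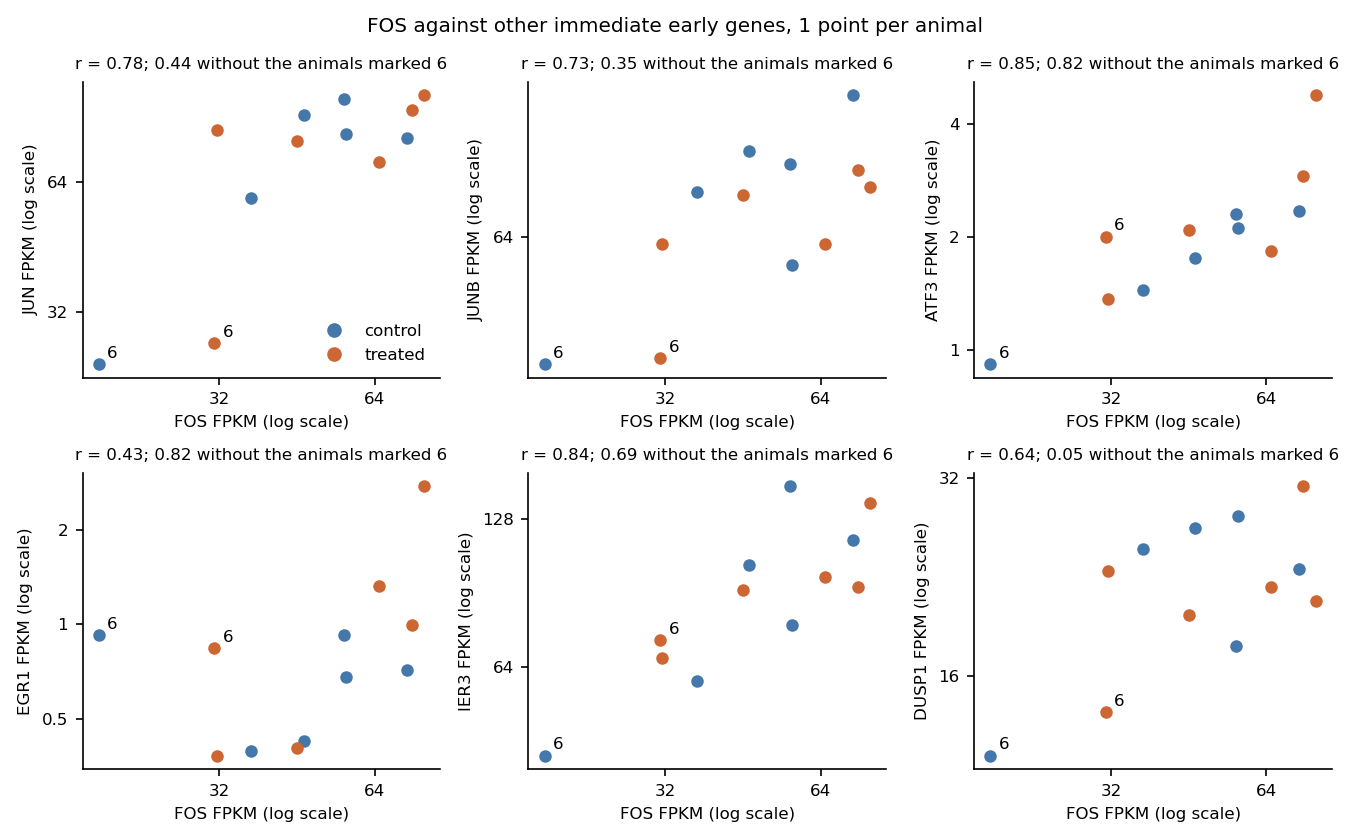
FPKM of FOS (horizontal, log scale) against that of JUN, JUNB, ATF3, EGR1, IER3 and DUSP1 (vertical, log scale), with 1 point per animal in blue (control) or orange (treated), and Pearson's r for all 12 animals and without the animals marked 6. The r of ATF3 stays near 0.8 and that of IER3 near 0.7 without these 2 animals, whereas that of DUSP1 falls to 0.05 and that of EGR1 rises to 0.82.

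Over all 45 pairs of the 10 genes, r had a median of 0.574, was above 0 in 42 pairs and above 0.5 in 25. Without control 6 and treated 6 the median was 0.279, with 31 pairs above 0 and 12 above 0.5. The highest values among the remaining 10 animals were those of EGR1 with ATF3 (0.834), FOS with ATF3 (0.825) and FOS with EGR1 (0.824). The lowest were those of DUSP1 with ZFP36 (-0.50) and with IER3 (-0.496). Over all 12 animals r was instead positive for these pairs of DUSP1, at 0.478 and 0.325, and it was positive within each diet. These are descriptions of the libraries, which all pairs share, and the same counts over pairs of other genes are not given here.

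Within the AP-1 family, the share of each subunit varied between animals and overlapped between the diets. FOS made up 30.9% to 56.5% of the summed FPKM of FOS, FOSB, FOSL1 and FOSL2 in controls (median 41.8%) and 32.4% to 55.3% in treated animals (median 47.8%). Nearly all of the rest was FOSL2, a FOS relative with a role in epidermal differentiation, with a median share of 57.7% in controls and 51.5% in treated animals. FOSB and FOSL1 together added little, since the highest share of FOSB was 0.469% and that of FOSL1 was 1.03%. Among the JUN proteins, JUN had a median share of 42.6% in controls and 47.7% in treated animals, JUNB of 46.3% and 41.0%, and JUND of 12.5% and 11.7%. The ratio of JUNB to JUN was 1.71 in control 6 and 1.55 in treated 6, and between 0.701 and 1.29 in the other 10 animals.

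A further 35 immediate early transcription factors and regulators were looked up, of which 32 passed the filter. Of these, 0 had a nominal limma p below 0.05, and the treated mean was the higher one for 16 and the lower one for 16, with a median log2 fold change of 0.0011 beside 0.0051 over all genes tested. The most abundant were CEBPD at 174 ± 60.5 FPKM (control) and 157 ± 33.7 FPKM (treated), the survival factor MCL1 at 145 ± 12.7 and 142 ± 9.59, and FOSL2 at 63.2 ± 14.2 and 61.7 ± 16.2 (SD over 6 animals). EGR4 was at 0 in every animal, and EGR2 and NR4A2 did not pass the filter. MCL1 varied little between animals of 1 diet, since 1.03% of the genes tested had a lower within-group SD.

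Upstream of the immediate early genes, all 28 genes of the MAP kinase cascade and of the SRF, ternary complex and CREB factors passed the filter. None had a nominal limma p below 0.05. The mean was higher with green feed for 14 of them and lower for 14, at log2 fold changes from -0.20 to 0.26. The kinases MAP2K1 (57.1 ± 8.60 FPKM for control and 61.6 ± 8.34 for treated) and MAPK14 (34.9 ± 2.95 and 34.5 ± 1.62; SD over 6 animals) were among the most abundant. Of the 21 feedback phosphatases, Sprouty proteins and relatives of ZFP36, 17 passed the filter and 0 had a nominal limma p below 0.05, with 7 higher and 10 lower. NFKBIA, the inhibitor of NF-kappa B, was at 51.9 ± 6.90 and 50.6 ± 14.3 FPKM, ZFP36L1 at 24.3 ± 5.15 and 26.6 ± 4.54, and DUSP7 at 18.5 ± 5.83 and 20.3 ± 6.11 (SD over 6 animals).

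Secreted and surface products that follow AP-1 activation were mostly low. Of 20 genes listed, 18 were matched by symbol and 12 passed the filter, and 0 of the 12 had a nominal limma p below 0.05, with 6 higher and 6 lower. IL6, TNF, LIF, MMP3, MMP9 and IL11 did not pass the filter. The chemokine CXCL8 ranged from 3.78 to 32.8 FPKM in controls and from 4.03 to 28.5 in treated animals. The r with the mean of the immediate early genes was -0.232 for CXCL8, 0.593 for the angiogenic factor VEGFA and 0.483 for HBEGF, a ligand of the EGF receptor. Over all 12 animals the median r of the 12 genes was -0.0752, and 8.33% were above 0.5, against 26.4% of all genes tested. Without control 6 and treated 6 their median r was 0.339, and 33.3% were above 0.5, against 12.3% of all genes tested. Lists of other acute responses gave 0 genes with a nominal limma p below 0.05 as well, among 9 heat shock genes, 10 hypoxia genes and 8 glucocorticoid response genes tested. The median log2 fold change was -0.01, 0.02 and -0.15 in that order, and 7 of the 8 glucocorticoid response genes had a lower mean in the treated group.

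Likeness across animals was measured as Pearson's r with the mean of the 9 immediate early genes that passed the filter, each scaled to an SD of 1. Of the 32 other immediate early genes, 20 (62.5%) had an r above 0.5, against 26.4% of all genes tested, and the median r was 0.637 against 0.102. Without control 6 and treated 6 the shares were 46.9% (15 of 32) and 12.3%, with medians of 0.424 and 0.108. JUND (r = 0.933), KLF4 (0.888), EGR3 (0.838), NR4A1 (0.823) and FOSL1 (0.816) were most alike over the 12 animals, and JUND, FOSL1, NR4A1 and KLF4 kept an r of at least 0.674 in the remaining 10. FOSL2 went from 0.635 to -0.353. Other lists held shares above that of all genes tested as well. Over 12 animals, r was above 0.5 for 55.6% of 9 heat shock, 41.2% of 17 feedback and 37.5% of 8 glucocorticoid genes. The share was 10% for 10 hypoxia genes. In the remaining 10 animals these shares were 11.1%, 47.1%, 25% and 30% in that order. The 6 leukocyte markers went from 0% to 50%, and the other marker lists stayed below all genes tested. Of the upstream kinases and factors, 28.6% had an r above 0.5, close to the 26.4% of all genes tested, with a median r of 0.223. In the remaining 10 animals it was 21.4%, against 12.3% of all genes tested, with a median of 0.242. Their summed FPKM had an r of 0.749 and a rho of 0.818 with the mean of the immediate early genes over the 12 animals. Abundant genes weigh most in this sum. It was lowest in control 6 and treated 6, at 307 and 272 FPKM against at least 311 FPKM elsewhere. Its r without both animals, and that of sums of other genes, are not given here.

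**Figure D5:**
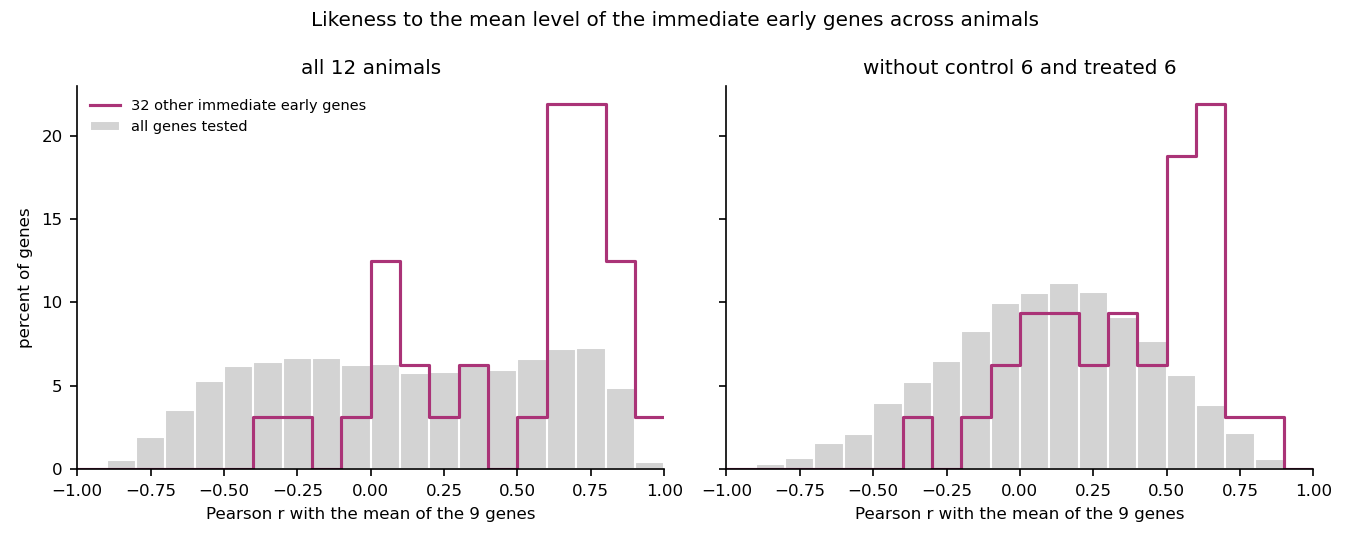
Percent of genes (vertical axis) by Pearson's r with the mean of the 9 immediate early genes (horizontal axis), for all genes tested (grey bars) and the 32 other immediate early genes (line), over all 12 animals on the left and without control 6 and treated 6 on the right. Of the other immediate early genes, 62.5% are above 0.5 on the left and 46.9% on the right, against 26.4% and 12.3% of all genes tested.

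Among 11524 genes outside the 10 with a mean of at least 1 FPKM, those whose level, centred in each diet group, was most like that mean were DNAJC5 (r = 0.983), NOC4L (0.974), DGKZ (0.960), JUND (0.953), WDR25 (0.948), MBD3 (0.943), SYS1 (0.942), FARSA (0.941), MAP7D1 (0.941) and NOP14 (0.937), each over 12 animals. JUND, the AP-1 subunit, was the only one of the 10 that any of the immediate early or pathway lists held. DNAJC5 ranged from 6.80 to 11.3 FPKM and JUND from 9.90 to 28.2 FPKM. All of these values include control 6 and treated 6. By the same measure 28.4% of the 11524 genes had an r above 0.5.

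The labelled tissue showed the markers of a stratified squamous epithelium, with KRT15 at 782 and DSG3 at 700 FPKM on average in controls, beside the KRT5 values given above. Fibroblast markers had a median log2 fold change of -0.59 and smooth muscle markers of -0.75, treated against control. Of these 9 and 8 tested markers, only DES had a nominal limma p below 0.05, with a log2 fold change of -1.04 (exact permutation p = 0.0519, n = 6 per group). Over the animals, the mean of the immediate early genes had an r of 0.652 (rho 0.301) with the summed epithelial markers, -0.473 with the fibroblast markers and 0.121 with the smooth muscle markers. The median r of the 11 epithelial markers was 0.377, and -0.0058 without control 6 and treated 6. Of the 8 glial and neuronal markers, 1 passed the filter, S100B, with 15.7 FPKM in control 6 and 2.12 to 8.11 FPKM in the other animals, and SOX10 and ELAVL4 were among those at 0 in every animal. The mean of the immediate early genes had an r of -0.544 with the sum of these markers over the 12 animals, -0.976 in controls and -0.184 in treated animals. Control 6 had the highest sum of these markers and the lowest mean of the immediate early genes. For S100B alone, r was -0.577 over the 12 animals and -0.045 without control 6 and treated 6. With a score of the fibroblast and smooth muscle markers as a covariate, the log2 fold changes of FOS, JUN and IER3 were -0.03, -0.03 and -0.01, that of ZFP36 was -0.47, and none of the 9 genes had a nominal limma p below 0.05. The mean of the immediate early genes had an r of 0.519 (rho 0.259) with the counted fragments, of 0.907 in controls and -0.574 in treated animals. The controls include control 6, which was lowest in both.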

How the data were processed

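RNA was taken from the ruminal wall of 12 buffaloes, 6 per diet. The authors trimmed reads with Trimmomatic 0.39, aligned them to the UOA_WB_1 genome with STAR 2.5.2b and assigned them to genes by strand with featureCounts 2.0.0. The deposited table gives FPKM, made by the authors from these counts. The gene lengths behind them are not given in the sources used here. Columns were matched to animals by the sample titles, and 4 columns that matched no sample were not used.

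The FPKM of all 22972 genes above 0 came out as whole multiples of 1 read, within 0.0001, which gave the reads behind each value. They were used for the filter (at least 40 scaled reads in at least 1 animal, as a stand-in for the HTSFilter step of the study), for depth and for voom. The study used a count model and a nominal threshold, but since FPKM is the deposited unit, the main test was limma 3.58.1 (R 4.3.3) on log2(FPKM + 0.01) with a variance trend and no covariate, Benjamini-Hochberg adjusted over all genes tested. For low genes such a fold change depends on the 0.01 added. Exact permutation tests and correlations (100000 resamples for the main correlations and 20000 for their alternatives, two-sided) were run with Python 3.11.15, numpy 2.4.6 and scipy 1.17.1, and the fits were tested on simulated data. The p-values of group differences set the difference against the variation between these animals. Those of correlations come from shuffling the animals of 1 of the 2 genes. Depth sets a floor of 3 reads per animal and covers counting error only.

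The genes and all lists were chosen with earlier results of these data known. The text names all 10 genes, from each list those with a nominal p below 0.05 or otherwise the 3 most abundant, and the 10 genes most like the mean of the 9. Single genes beyond these, namely EGR2, EGR3, EGR4, NR4A1, NR4A2, FOSL1, KLF4 and the genes of lists that did not pass the filter, were named after their values were seen. CCN1 and CCN2 stand in the table under older symbols. CCL2, CXCL2, HSPA1A, HSPE1, LDHA, MT2A, KRT14, DSC3, CD163 and LYZ were not matched by symbol and were not analysed here. Single values of some list genes are not reported here.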

Additional observations from a re-analysis of the deposited data

Results flagged for a closer look

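In none of the 20 groups of animals formed by the 10 immediate early genes was the lowest or highest animal far enough from the nearest one, relative to the range of the group, to pass Dixon's 95% limit for groups of 6. Over all 94 groups looked at, those of the named pathway and marker genes included, 6 passed it, and chance flags about 1 in 20. Among the libraries concerned, control 6 and treated 6 are those with low FOS and JUN. In control 6, KRT5 was at 451 FPKM, far below the nearest control, the T cell marker CD3D was at 13.8 FPKM and the glial marker S100B at 15.7 FPKM, both above the nearest control. In treated 6, the feedback phosphatase DUSP7 was at 8.69 FPKM, far below the nearest treated animal. In control 4, the animal with the highest FOS level among controls, CEBPD was at 293 FPKM and the heat shock protein HSPA8 at 877 FPKM, above the nearest controls with 168 and 539 FPKM.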

How the results depend on the processing

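The number of genes with a nominal limma p below 0.05 was 162 of 12760. It was 562 without a filter, 301 when a level of 0.1 FPKM was required in 6 or more animals, 328 with the score of fibroblast and smooth muscle markers as a covariate, and 317 without control 6 and treated 6, an alternative chosen after seeing the data. Leaving out single animals gave 144 to 331, with the highest number without treated 6. In each of these fits 0 genes had an adjusted p below 0.05. The replicate numbers of the labels do not name the same animals in both groups. Deviations of same-numbered animals correlated at -0.0128 to 0.411 over the 6 pairs, and only numbers 3, 4 and 6 correlated best with their own number, so that the numbers were not taken as pairs. With the replicate number as a block, 326 genes had a nominal p below 0.05.

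Among the immediate early genes, 0 had a nominal p below 0.05 in 21 of the 22 other fits, and 1, FOSB, without treated 3 (0 to 1 when animals were left out). With the score as a covariate, FOS, JUN and IER3 changed sign to -0.032, -0.028 and -0.010, and ZFP36 was at -0.47, while without both animals IER3 was at -0.026. Leaving out 1 animal moved FOS from -0.043 to 0.35, JUN from -0.21 to 0.36, IER2 from -0.25 to 0.026, IER3 from -0.090 to 0.27, DUSP1 from -0.17 to 0.11 and ZFP36 from -0.25 to 0.19, so that no direction was settled for these 6. JUNB stayed below 0 (-0.015 without treated 6, -0.30 without control 6), and EGR1, ATF3 and FOSB above 0, under all alternatives. Of the 9 relations of FOS, 8 had an adjusted permutation p below 0.05. Without both animals there were 2, those to ATF3 and EGR1, of which EGR1 was not among the 8. When 1 animal was left out there were from 1 (without control 6) to 8, with 5 without treated 4. All 9 genes that passed the filter also had a spread above the median with a pseudocount of 1. The cause of these changes was not tested. Depth limits FOSB, with 25 reads at most in an animal, whereas FOS, JUN, JUNB and IER3 rest on 384 reads or more in every animal.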
